A study of Mus musculus with 6 samples.

Results

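The genes described here are the 37 genes of the mouse mitochondrial genome, taken as every row of the deposited gene table whose name starts with mt-. They are 37 of 36758 genes in the table, and comprise 13 protein-coding genes, 2 ribosomal RNA (rRNA) genes and 22 transfer RNA (tRNA) genes, which are all 37 chrM genes of the GENCODE M21 annotation. RNA of brain tissue, labelled as that of microglia (the brain's own macrophages), was sequenced from C57BL/6J mice whose age is given as 6 months. 3 libraries came from mice fed trimethylamine N-oxide (TMAO) at 0.12% once daily over 16 weeks, and 3 came from mice fed water as vehicle over the same 16 weeks. TMAO is an oxide that the liver makes from trimethylamine released by gut bacteria. The series title places the work in stroke, and the sample labels name no stroke operation. No label ties a library to its own animal, so every p-value reflects variation among these 6 libraries alone, and part of that may be technical.

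Mitochondrial DNA is a small circle, present in many copies per cell, that carries the core subunits of respiratory complexes I, III, IV and V together with the rRNAs and tRNAs needed to translate them inside the organelle. Both strands are copied by the polymerase POLRMT into long precursors, and most mRNAs and rRNAs are released when the tRNAs that lie between them are cut out. Neurons depend on this system for much of their ATP, and mitochondrial transcripts are a large part of brain RNA.

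Values are fragments per gene, scaled by the length of the gene and by the size of the library (FPKM), as the authors gave them, and the total FPKM of a library ran from 305701 to 326977. Read counts were not used here, so the depth behind a value is unknown. The labelled cell type was checked against marker genes: the 10 microglia markers summed to 221 to 233 FPKM in TMAO and 202 to 563 FPKM in vehicle, against 1587 to 1875 FPKM in TMAO and 593 to 1615 FPKM in vehicle for the 15 neuron markers. None of the markers was at 0 in all libraries. Vehicle replicate 1 was set apart from the rest, with the highest microglia sum (563 FPKM) and the lowest neuron sum (593 FPKM). Differences that rest on it are therefore also given without it.

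Mitochondrially encoded genes held 30.8%, 30.5% and 31.2% of all FPKM in the TMAO libraries, against 26.3%, 29.1% and 32.0% in the vehicle libraries. The TMAO libraries lay within 1 percentage point of each other and inside the range of the vehicle libraries. The group means were 30.9% ± 0.366 in TMAO and 29.1% ± 2.84 in vehicle (SD, n = 3 each), a difference of 1.72 percentage points, and of 0.322 without vehicle replicate 1. mt-Co1 had the highest mean FPKM of all genes in the table. Of the 20 genes with the highest means, 14 were mitochondrially encoded and the other 6 were nuclear copies of mitochondrial genes, which are described further on. All 37 genes passed the filter of at least 1 FPKM in at least 3 libraries, the lowest single value being 19.8 FPKM.

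**Figure D1:**
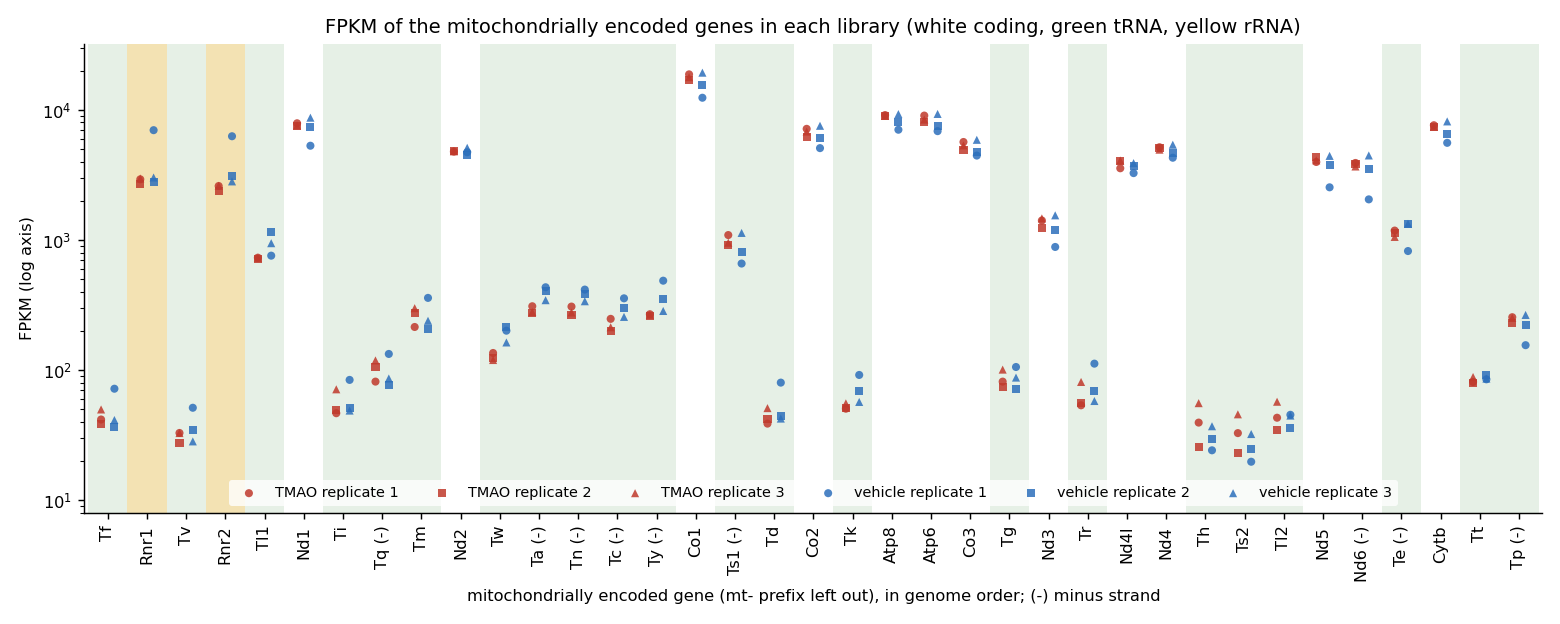
FPKM (log axis) of the 37 mitochondrially encoded genes in genome order, with TMAO libraries in red left of vehicle libraries in blue and a marker shape for each replicate. The coding genes lie between 884 and 19264 FPKM and the tRNA genes between 19.8 and 1331 FPKM. In vehicle replicate 1 (blue circles) the rRNA genes are the highest and 12 of 13 coding genes the lowest of the 6 libraries.

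Complex IV, cytochrome c oxidase, passes electrons to oxygen, and its 3 mitochondrial subunits form the catalytic core. mt-Co1, the subunit that holds the oxygen-binding site, was at 18700.1, 17055 and 17800.4 FPKM in TMAO, against 12367, 15406 and 19264 FPKM in vehicle. mt-Co2, which accepts electrons from cytochrome c, was at 7136, 6128 and 6797 FPKM in TMAO, against 5074, 6109.7 and 7530.2 FPKM in vehicle. mt-Co3 was at 5655, 4918 and 5322 FPKM in TMAO, against 4447, 4743 and 5877 FPKM in vehicle. For all 3 genes the vehicle range enclosed the TMAO range, with vehicle replicate 1 at its bottom and vehicle replicate 3 at its top.

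Complex V, the ATP synthase, has a pair of mitochondrial subunits, both in the membrane part. mt-Atp6, which forms the proton path, was at 9021, 8098 and 8405 FPKM in TMAO, against 6850.3, 7461 and 9288 FPKM in vehicle. mt-Atp8 was at 9101, 8989 and 8973 FPKM in TMAO, against 7025, 8072 and 9266 FPKM in vehicle. Vehicle replicate 1 was again the lowest and vehicle replicate 3 the highest of the 6 libraries. mt-Cytb, the only mitochondrially encoded subunit of complex III and the one that carries its haem b groups, was at 7605, 7323 and 7407 FPKM in TMAO, against 5571, 6541 and 8138 FPKM in vehicle, with the same lowest and highest library.

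Complex I takes electrons from NADH, and its 7 mitochondrial subunits lie in the membrane arm that pumps protons. mt-Nd1, next to the quinone site, was at 7874, 7486 and 7568 FPKM in TMAO, against 5293, 7413 and 8691 FPKM in vehicle. mt-Nd2 was at 4773, 4825 and 4792 FPKM in TMAO, against 4715, 4502 and 5103 FPKM in vehicle. mt-Nd2 was the steadiest coding gene, with a coefficient of variation of 4.05% over the 6 libraries, and the 1 coding gene whose lowest value was not in vehicle replicate 1. mt-Nd3 had the lowest level of the coding genes, at 1410.3, 1237 and 1465 FPKM in TMAO, against 884, 1183 and 1546 FPKM in vehicle. mt-Nd4l was at 3553, 4027 and 4076 FPKM in TMAO, against 3261, 3679.5 and 3892 FPKM in vehicle. It was the 1 coding gene with its highest value in a TMAO library. mt-Nd4, a proton-pumping subunit, was at 5154, 5056 and 4936 FPKM in TMAO, against 4282, 4647 and 5389 FPKM in vehicle. mt-Nd5, the largest of the 7, was at 3970.1, 4304 and 4088 FPKM in TMAO, against 2537, 3746 and 4423 FPKM in vehicle. mt-Nd6, the only coding gene on the minus strand, was at 3903, 3847 and 3666 FPKM in TMAO, against 2049.8, 3486 and 4456 FPKM in vehicle. The groups overlapped in every one of these genes.

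Per length, the mean levels over all 6 libraries descended from mt-Co1 (16766 FPKM) through mt-Atp8 (8571 FPKM), mt-Atp6 (8187 FPKM), mt-Nd1 (7387 FPKM), mt-Cytb (7097 FPKM), mt-Co2 (6462 FPKM), mt-Co3 (5160.1 FPKM), mt-Nd4 (4910.4 FPKM), mt-Nd2 (4785 FPKM), mt-Nd5 (3845 FPKM), mt-Nd4l (3748 FPKM) and mt-Nd6 (3568 FPKM) to mt-Nd3 (1287 FPKM). Neighbours in that order had ranges over the libraries that did not overlap at only 3 places, between mt-Co1 and mt-Atp8, between mt-Nd2 and mt-Nd5, and between mt-Nd6 and mt-Nd3. All other neighbours had overlapping ranges. Complex I subunits made up 35.9% ± 1.04 of the summed coding FPKM in TMAO and 36.4% ± 0.765 in vehicle (SD, n = 3 each). The complex IV share was 34.9% ± 1.07 in TMAO and 34.4% ± 0.650 in vehicle. The complex V share was 20.5% ± 0.127 in TMAO and 20.6% ± 0.861 in vehicle, so the make-up of the coding genes by complex overlapped between the groups. For complex V that overlap rested on vehicle replicate 1 (21.6%), as the share was 20.6%, 20.5% and 20.4% in TMAO and 20.2% and 19.98% in vehicle replicates 2 and 3.

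7 of the 13 coding genes have a near-identical copy in the nuclear genome, within a stretch of chromosome 1 (GRCm38, chr1:24611535-24616197, 4663 bases). The copies match parts of chrM:6390-11042 (4653 bases), and the bases between the annotated copies were not aligned. The annotated copies are pseudogenes, with 99.7% to 100% identity to the mitochondrial sequence over the aligned bases, and the table lists them as genes of their own. Gm10925, the copy of mt-Atp6, was at 9498, 8433 and 8856 FPKM in TMAO, against 7191, 7718 and 9587 FPKM in vehicle. Its ratio to mt-Atp6 was 1.03 to 1.05 in the 6 libraries, so the copy and the gene had almost the same value in each. Gm28661, the copy of mt-Co2, was at 7019, 5858 and 6601 FPKM in TMAO, against 4918, 5951 and 7465 FPKM in vehicle. Gm28437, the copy of mt-Co3, was at 5673, 4893 and 5262 FPKM in TMAO, against 4446, 4740.1 and 5888 FPKM in vehicle. The ratio to the gene was 0.956 to 0.991 for Gm28661 and 0.989 to 1.003 for Gm28437.

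Gm29216, which matches the end of mt-Co1, was at 5277, 4438 and 4697 FPKM in TMAO, against 3227, 4048 and 5045 FPKM in vehicle, or 0.260 to 0.282 of mt-Co1. 1062 bases of mt-Co1 lie outside that match. Gm28439, which matches part of mt-Nd4 and leaves 502 of its bases outside, had 0.667 to 0.734 of the mt-Nd4 level. The ratio was 0.960 to 1.01 for Gm10222, the copy of mt-Nd4l, and 0.849 to 0.936 for Gm28438, the copy of mt-Nd3. The 7 copies held 10.6% to 11.1% of all FPKM in TMAO and 8.47% to 11.3% in vehicle. The other 7 nuclear genes that matched, on chromosomes 2, 4 and 13, averaged 0.0561 to 12.8 FPKM. The sources used here do not give how fragments that fit both places were assigned, so the levels of these 7 coding genes are uncertain, and the order above holds only for the values as deposited. mt-Nd1, mt-Nd2, mt-Atp8, mt-Nd5, mt-Nd6 and mt-Cytb have no listed chromosome 1 copy. mt-Atp8 and the tRNA genes mt-Ts1, mt-Td, mt-Tk, mt-Tg and mt-Tr lie wholly inside the span of the 7 matches. Whether chromosome 1 holds them in full was not tested.

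**Figure D2:**
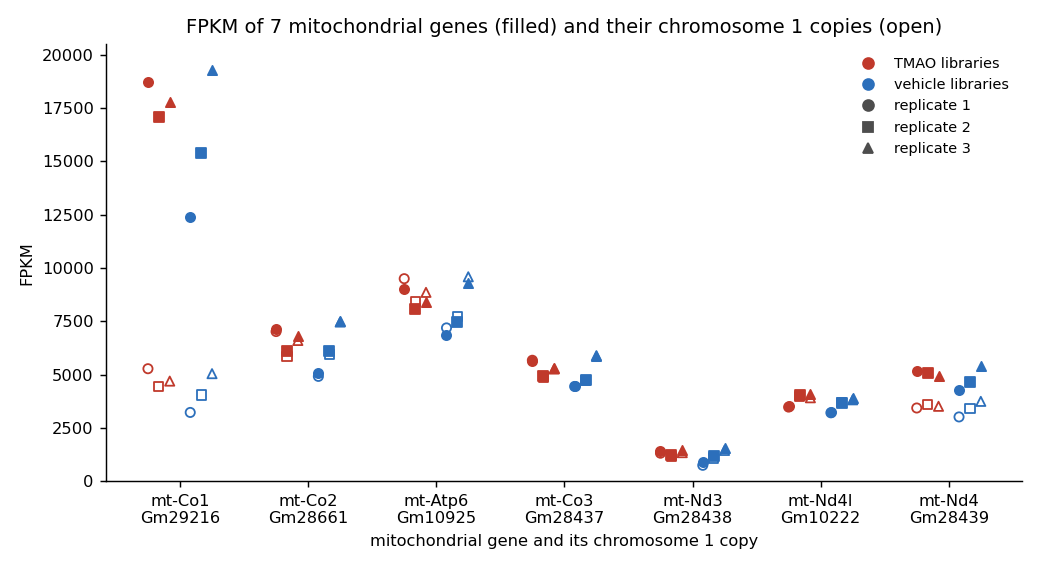
FPKM of 7 mitochondrial coding genes (filled) and of their chromosome 1 copies (open) in each library, with TMAO libraries in red left of vehicle libraries in blue and genes in genome order. The copy sits on its gene for mt-Co2, mt-Atp6, mt-Co3 and mt-Nd4l, with ratios of 0.956 to 1.05, and well below it for mt-Co1, with ratios of 0.260 to 0.282.

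Several mitochondrial genes overlap, and their levels cannot be fully separated. mt-Atp8 and mt-Atp6 are translated from a shared mRNA and overlap by 43 bases of the plus strand (GRCm38, chrM:7927-7969), printed here from the GENCODE M21 transcripts because the shared letters limit how their levels can be told apart. The capitals mark the start codon of mt-Atp6 at the left and the stop codon of mt-Atp8 at the right.
overlap of mt-Atp8 and mt-Atp6: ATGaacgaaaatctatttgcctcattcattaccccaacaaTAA
The ratio of mt-Atp8 to mt-Atp6 was 1.01, 1.11 and 1.07 in TMAO, against 1.03, 1.08 and 0.998 in vehicle. mt-Nd4l and mt-Nd4, which overlap by 7 bases and also share an mRNA, had a ratio of 0.689, 0.797 and 0.826 in TMAO, against 0.762, 0.792 and 0.722 in vehicle. mt-Nd6 overlaps the end of mt-Nd5 by 14 bases on the opposite strand, and the sources used here do not give whether counting used the strand. Their ratio was 0.983, 0.894 and 0.897 in TMAO, against 0.808, 0.931 and 1.01 in vehicle. The groups overlapped in all 3 ratios.

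The rRNA genes lie near the start of the plus strand precursor, with the tRNA gene mt-Tv between them. They code for the RNA of the small (mt-Rnr1, 12S) and the large (mt-Rnr2, 16S) subunit of the mitochondrial ribosome. mt-Rnr1 was at 2922, 2676 and 2967 FPKM in TMAO, against 6969.6, 2778 and 3018 FPKM in vehicle. mt-Rnr2 was at 2596, 2382 and 2609 FPKM in TMAO, against 6259.7, 3094 and 2817 FPKM in vehicle. Vehicle replicate 1 lay far above the rest, at 2.43 times the mean of the other 5 libraries for mt-Rnr1 and 2.32 times for mt-Rnr2. All 3 TMAO values of mt-Rnr2 lay under all 3 vehicle values, while those of mt-Rnr1 overlapped them. As a share of the summed coding FPKM, the rRNA genes were at 6.28%, 6.07% and 6.54% in TMAO, against 20.6%, 7.63% and 6.28% in vehicle. These are shares of the deposited values and need not be those in the cell. The part of library preparation in them, also in vehicle replicate 1, was not tested. The ratio of mt-Rnr2 to mt-Rnr1 was 0.888, 0.890 and 0.879 in TMAO, against 0.898, 1.11 and 0.933 in vehicle. The groups did not overlap, but the nearest values, 0.890 and 0.898, were close. Ratios and summed shares were not set against a background here or below, so such gaps are description only.

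The tRNA genes are 59 to 75 bases long, far shorter than the coding genes (204 to 1824 bases), and a fragment of the precursor or of a neighbouring transcript can cover a whole tRNA gene. Their values need not be those of mature tRNAs, whose share was not tested. The 4 highest and the genes whose groups did not overlap are printed here in full, because the comparison below turns on them, with the anticodon in capitals. The sequences are from the GENCODE M21 transcripts (GRCm38), 5′ to 3′ on the strand of the gene.
mt-Te (chrM:14071-14139, minus strand): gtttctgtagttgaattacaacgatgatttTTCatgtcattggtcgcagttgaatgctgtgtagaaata
mt-Ts1 (chrM:6870-6938, minus strand): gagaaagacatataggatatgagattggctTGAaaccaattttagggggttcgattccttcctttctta
mt-Tl1 (chrM:2676-2750, plus strand): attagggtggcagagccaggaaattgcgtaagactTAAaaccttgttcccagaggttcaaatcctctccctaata
mt-Tw (chrM:4950-5016, plus strand): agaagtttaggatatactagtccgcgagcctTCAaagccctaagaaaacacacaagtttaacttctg
mt-Ta (chrM:5018-5086, minus strand): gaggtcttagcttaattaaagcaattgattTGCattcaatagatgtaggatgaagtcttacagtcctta
mt-Tn (chrM:5089-5159, minus strand): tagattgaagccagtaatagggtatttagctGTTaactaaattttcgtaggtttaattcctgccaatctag
mt-Tc (chrM:5192-5257, minus strand): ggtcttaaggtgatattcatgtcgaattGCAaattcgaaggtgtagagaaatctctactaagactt
mt-Ty (chrM:5260-5326, minus strand): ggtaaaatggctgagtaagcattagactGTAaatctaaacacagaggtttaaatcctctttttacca
mt-Tk (chrM:7700-7764, plus strand): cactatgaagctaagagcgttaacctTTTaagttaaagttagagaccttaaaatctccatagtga

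mt-Te (glutamate), which adjoins mt-Nd6 on the minus strand, was at 1180.4, 1136 and 1055 FPKM in TMAO, against 822, 1322 and 1331 FPKM in vehicle. mt-Ts1, a serine tRNA gene on the minus strand that overlaps the end of mt-Co1 by 3 bases, was at 1091, 911 and 952 FPKM in TMAO, against 659, 809 and 1132 FPKM in vehicle. mt-Tl1, a leucine tRNA gene between mt-Rnr2 and mt-Nd1, was at 731, 714 and 729 FPKM in TMAO, against 757, 1146 and 944 FPKM in vehicle. These 3 stood above the other 19 tRNA genes, and the lowest mt-Tl1 value lay above the highest value of the next gene, mt-Ta. All other neighbours in the order of tRNA genes had overlapping ranges. The levels of tRNA genes split by strand. The 8 on the minus strand had a median of 325 FPKM over genes and 7 of them averaged over 200 FPKM, while the 14 on the plus strand had a median of 60.7 FPKM and 2 of them, mt-Tl1 and mt-Tm, averaged over 200 FPKM. Minus strand tRNA genes lie opposite the plus strand precursor, so without strand in the counting, fragments of the 2 strands cannot be told apart.

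The remaining tRNA genes ran from 266 FPKM for mt-Tm (methionine) on average through mt-Tp (proline, 229.8 FPKM), mt-Tq (glutamine, 100.4 FPKM), mt-Tg (glycine, 86.8 FPKM), mt-Tt (threonine, 85.4 FPKM), mt-Tr (arginine, 71.6 FPKM), mt-Ti (isoleucine, 58.6 FPKM), mt-Td (aspartate, 49.8 FPKM), mt-Tf (phenylalanine, 46.8 FPKM), mt-Tl2 (leucine, 43.6 FPKM), mt-Th (histidine, 35.3 FPKM) and mt-Tv (valine, 34.6 FPKM) to mt-Ts2 (serine, 29.8 FPKM). mt-Th, mt-Ts2 and mt-Tl2 form an unbroken run between mt-Nd4 and mt-Nd5 and were at most 57.2 FPKM in any library, next to coding genes of 2537 FPKM or more. mt-Tv, between the rRNA genes, was at most 51.4 FPKM. mt-Tt was the steadiest tRNA gene, at 81.1, 79.6 and 88.6 FPKM in TMAO, against 85.1, 92.1 and 86.1 FPKM in vehicle.

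The comparison of TMAO with vehicle asked which mitochondrially encoded RNAs differed with the diet. 5 neighbouring tRNA genes, for tryptophan, alanine, asparagine, cysteine and tyrosine, had lower values in every TMAO library than in every vehicle library, as had mt-Tl1, mt-Tk and mt-Rnr2. No coding gene separated the groups. None of these differences passed the test across all genes. Groups without overlap, lower in TMAO, were seen for 21.6% of the mitochondrially encoded genes, against 17.5% of all genes tested. Counted in either direction, it was 29.5% of all genes tested. The lack of overlap is therefore description only, and does not set these genes apart from the rest. In bulk RNA, fewer cells of a type and less RNA per cell cannot be told apart.

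By limma on log2(FPKM + 1) over 14206 genes, with Benjamini-Hochberg adjustment, 0 of 37 mitochondrially encoded genes had an adjusted p under 0.05, as was so for all genes tested (0.0%, smallest adjusted p = 0.404). At an unadjusted p under 0.05, 4 of 37 (10.8%) had lower values in TMAO, against 7.22% of all genes tested, and 0 had higher values, against 4.84% of all genes. Without vehicle replicate 1 the count was 7 of 37 (18.9%) with lower values, against 10.2% of all genes, and 0 with higher values, against 6.98%. The groups did not overlap for 8 of 37 genes (21.6%), all lower in TMAO. Over all genes it was 17.5% lower and 12.1% higher (29.5% either way). The share whose groups did not overlap was near that of all genes, which makes it no result about these genes, and neighbours cut from a shared precursor are not independent. In the authors' deposited table, 0 of the 37 genes were marked significant, with q-values from 0.186 to 0.999.

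The 13 coding genes all had positive log2 differences, from 0.0090 for mt-Nd2 to 0.26 for mt-Nd6, with a median of 0.13 against -0.027 for all genes, of which 46.8% were positive. Adjusted p ran from 0.538 to 0.969. mt-Co1 had a log2 difference of 0.21 (SE 0.191, adjusted p = 0.538), with means of 17852 ± 824 FPKM in TMAO and 15679 ± 3457 FPKM in vehicle (SD, n = 3 each). mt-Nd6 had 0.26 (SE 0.292, adjusted p = 0.607) and mt-Nd5 had 0.24 (SE 0.226, adjusted p = 0.544). The shared sign rested on vehicle replicate 1: without it the median was 0.015, 10 of 13 were positive (45.4% of all genes), and mt-Nd1 (-0.071), mt-Co2 (-0.023) and mt-Nd6 (-0.051) were negative. The sign of mt-Nd2 (-0.041) and mt-Nd4l (-0.0049) was also negative under quantile normalization. Vehicle replicate 1 had 0.529 times the mean of the other 5 libraries for mt-Nd6 and 0.983 times for mt-Nd2, the lowest and the highest such ratio of the coding genes. It was also the library with the lowest sum of neuron markers, and the part of that in these values was not tested. By complex, the median log2 difference was 0.13 for complex I, 0.16 for complex III, 0.12 for complex IV and 0.14 for complex V, and at most 0.045 for each without vehicle replicate 1.

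For the rRNA genes the log2 difference was -0.44 for mt-Rnr1 (SE 0.364, adjusted p = 0.505) and -0.59 for mt-Rnr2 (SE 0.318, adjusted p = 0.413). Without vehicle replicate 1 it was -0.022 for mt-Rnr1 and -0.22 for mt-Rnr2. The exact two-sided permutation p of mt-Rnr2 was 0.1, the smallest that 3 against 3 libraries allow.

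The genes for tryptophan (mt-Tw), alanine (mt-Ta), asparagine (mt-Tn), cysteine (mt-Tc) and tyrosine (mt-Ty) tRNA lie in a row between mt-Nd2 and mt-Co1 (chrM:4950-5326), the cluster known as W-A-N-C-Y after its amino acids. The 32 bases between mt-Tn and mt-Tc are the origin from which the light strand is replicated. The cluster was singled out after its values were seen, and gets no test as a group. mt-Tw was at 136, 125 and 119.6 FPKM in TMAO, against 201, 215 and 163 FPKM in vehicle. mt-Ta was at 309.6, 274 and 279.6 FPKM in TMAO, against 433, 409 and 345 FPKM in vehicle. mt-Tn was at 308, 264 and 277 FPKM in TMAO, against 416, 382 and 338 FPKM in vehicle. In all 3 genes the groups did not overlap, and vehicle replicate 3 lay nearest to TMAO. mt-Tc was at 248, 198 and 214 FPKM in TMAO, against 356, 302 and 256 FPKM in vehicle. mt-Ty was at 269, 263 and 266 FPKM in TMAO, against 487, 351 and 285 FPKM in vehicle. The groups did not overlap in these either, and vehicle replicate 3 again lay close to the highest TMAO library.

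The log2 difference was -0.60 for mt-Tw (SE 0.156, unadjusted p = 0.00806, adjusted p = 0.404), the lowest of all 37 genes, and -0.45 for mt-Ta, -0.42 for mt-Tn and -0.46 for mt-Tc (unadjusted p = 0.0236, 0.0311 and 0.0408). mt-Ty had -0.46 (unadjusted p = 0.0796). Each of the 5 was also lower in TMAO without vehicle replicate 1, at -0.56, -0.38, -0.35, -0.34 and -0.25 in that order. All 5 kept a negative sign under quantile normalization, median scaling and rescaling without mitochondrial genes, but quantile normalization gave -0.24 for mt-Ta and mt-Tn, -0.30 for mt-Tc and -0.27 for mt-Ty. Among the 37 genes, the count at an unadjusted p under 0.05, which was 4, was 1 under quantile normalization and 2 under median scaling. Set against their neighbour, the 5 genes summed to 26.6%, 23.3% and 24.1% of the mt-Nd2 level in TMAO, against 40.1%, 36.8% and 27.2% in vehicle. As a share of the summed coding FPKM they were at 1.45%, 1.35% and 1.36% in TMAO, against 2.94%, 2.15% and 1.49% in vehicle. mt-Nd2, directly before the cluster, had a log2 difference of 0.0090 and mt-Co1, directly after it, of 0.21.

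mt-Tl1 had a log2 difference of -0.37 (SE 0.183, unadjusted p = 0.0883, adjusted p = 0.407) and -0.52 without vehicle replicate 1 (unadjusted p = 0.00224, adjusted p = 0.161), but -0.025 under quantile normalization. It was the one of the lower tRNA genes in which vehicle replicate 1, at 757 FPKM, lay nearest to TMAO. Relative to mt-Nd1, the gene that follows it, mt-Tl1 was at 9.28%, 9.53% and 9.63% in TMAO, against 14.3%, 15.5% and 10.9% in vehicle. mt-Tk, for lysine, was at 50.6, 51.5 and 55.6 FPKM in TMAO, against 91.9, 69.7 and 57.0 FPKM in vehicle, with a log2 difference of -0.44 (unadjusted p = 0.0623) and -0.26 without vehicle replicate 1. mt-Te, whose groups overlapped (log2 difference -0.011), had -0.24 without vehicle replicate 1 (unadjusted p = 0.0358, adjusted p = 0.259).

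Over the 22 tRNA genes the groups did not overlap for 7 (31.8%), all lower in TMAO, against 17.5% of all genes lower, and 4 (18.2%) were lower at an unadjusted p under 0.05, against 7.22% of all genes. Without vehicle replicate 1, 7 (31.8%) were lower at an unadjusted p under 0.05, against 10.2% of all genes. The median log2 difference was -0.13, against -0.027 for all genes, and -0.0023 without vehicle replicate 1. 15 of 22 were negative with all libraries (53.2% of all genes) and 11 of 22 without vehicle replicate 1 (54.6% of all genes), in which 13 of 22 tRNA genes had their highest value. mt-Th and mt-Ts2 had the highest log2 differences, 0.35 and 0.37 (adjusted p = 0.523 and 0.495). The tRNA genes together were at 6.11%, 6.00% and 6.16% of the summed coding FPKM in TMAO, against 8.63%, 7.79% and 6.41% in vehicle, and the groups did not overlap.

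**Figure D3:**
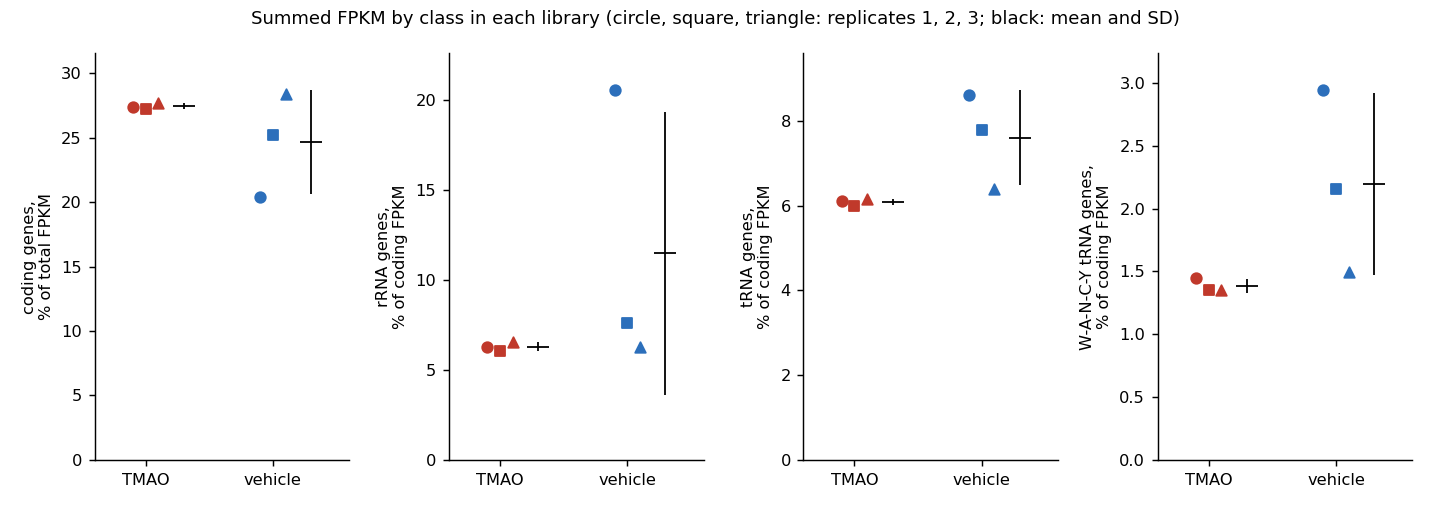
Summed FPKM of the coding genes as a percentage of all FPKM, and of the rRNA, tRNA and W-A-N-C-Y tRNA genes as a percentage of the coding genes, for each library, with TMAO left of vehicle and the mean with its SD in black (n = 3 each). The TMAO libraries lie close together in all 4 panels, and the tRNA and W-A-N-C-Y shares lie under all vehicle libraries.

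Markers of other cell types also differed in level between the groups, although 0 passed the adjusted threshold. Oligodendrocyte markers had lower values in TMAO for 13 of 13 genes, 9 of them at an unadjusted p under 0.05 (7.22% of all genes) and 10 without vehicle replicate 1 (10.2% of all genes), and summed to 449 to 712 FPKM in TMAO and 850.0 to 1094 FPKM in vehicle. Endothelial markers had lower values for 8 of 8 genes, 3 of them at an unadjusted p under 0.05, and summed to 81.3 to 97.2 FPKM in TMAO and 101 to 401 FPKM in vehicle. Erythroid markers had lower values for 5 of 5 genes tested, of 6 in the list. They summed to 80.7 to 110.0 FPKM in TMAO and 196 to 601 FPKM in vehicle. Neutrophil markers had lower values for 3 of 3 genes tested, of 8 in the list. They summed to 4.37 to 8.15 FPKM in TMAO and 14.5 to 123 FPKM in vehicle. Border macrophage markers had lower values for 3 of 3 genes tested, of 7 in the list, 0 of them at an unadjusted p under 0.05. They summed to 3.03 to 6.26 FPKM in TMAO and 4.55 to 70.8 FPKM in vehicle. Astrocyte markers had lower values for 6 of 10 genes, with 0 lower and 2 higher at an unadjusted p under 0.05. They summed to 694 to 756 FPKM in TMAO and 672 to 1009 FPKM in vehicle. The sums of these last 2 lists overlapped between the groups. Vehicle replicate 1 had the highest sum in each of the oligodendrocyte, endothelial, erythroid, neutrophil, border macrophage and astrocyte lists. Without vehicle replicate 1 the median log2 difference of the endothelial markers was -0.59, against -1.20 with all libraries. It was -1.10 against -1.62 for erythroid, -0.23 against -0.997 for border macrophage, -0.64 against -0.81 for oligodendrocyte and -1.96 against -2.54 for neutrophil markers. A gene could pass the filter of 1 FPKM in 3 libraries through the vehicle libraries alone, which favours genes lower in TMAO. The erythroid, neutrophil and border macrophage counts and medians are therefore description only. Neuron markers had higher values in TMAO for 11 of 15 genes, with a median of 0.50, and 0.028 without vehicle replicate 1. Microglia markers had lower values for 7 of 10 genes, with a median of -0.26, and 0.0021 without vehicle replicate 1. For astrocyte markers the median was -0.051, and 0.084 without vehicle replicate 1. No marker of these lists was at 0 in all libraries, and their part in the lower tRNA and rRNA values was not tested.

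**Figure D4:**
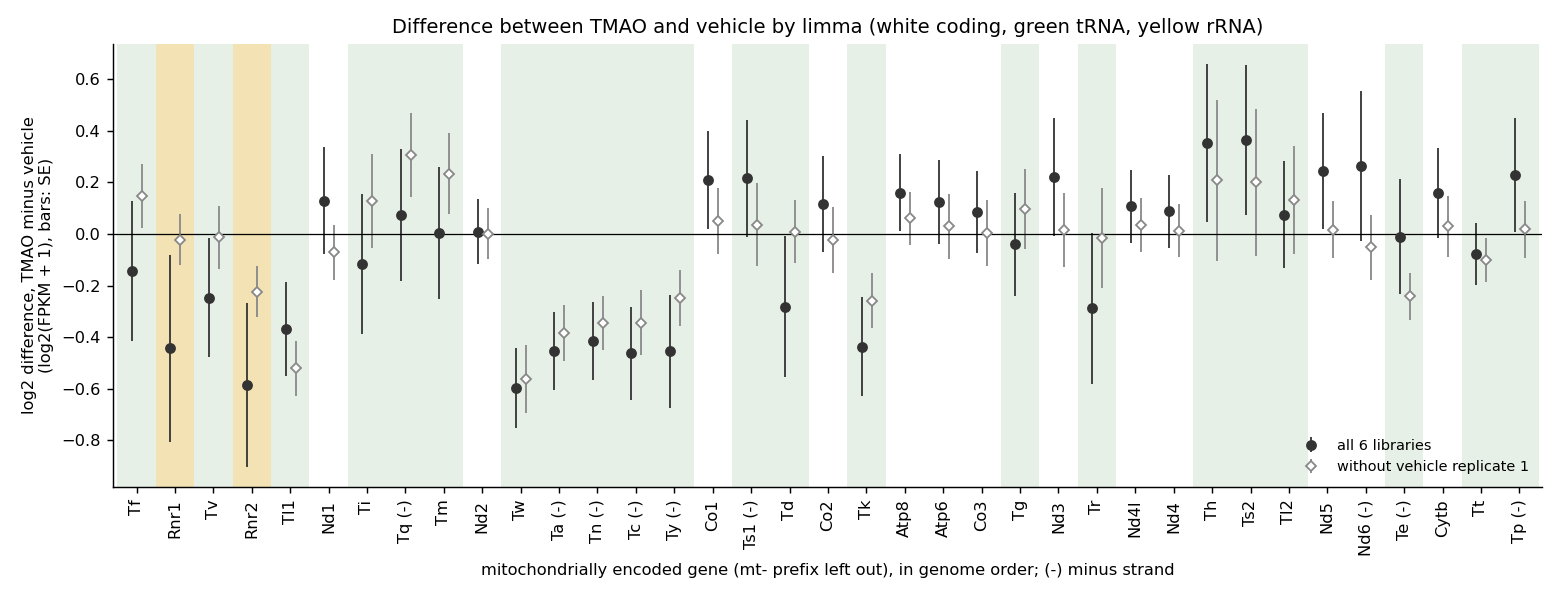
Log2 difference of TMAO minus vehicle with its SE for the 37 genes in genome order, from limma on log2(FPKM + 1), with all 6 libraries (filled) and without vehicle replicate 1 (open). The W-A-N-C-Y genes lie between -0.60 and -0.42 with all libraries and between -0.56 and -0.25 without vehicle replicate 1, while the coding genes have medians of 0.13 and 0.015.

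The nuclear genes that copy, transcribe, process and translate mitochondrial DNA, and the nuclear subunits of the same complexes, were described from 12 lists, of which 187 genes were tested. 0 passed the adjusted threshold. 5 had lower and 4 had higher values at an unadjusted p under 0.05 (7.22% and 4.84% of all genes), and 6 had lower and 3 higher values without vehicle replicate 1 (10.2% and 6.98% of all genes). The median was -0.017, against -0.027 for all genes.

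Of the transcription machinery, the polymerase Polrmt was at 5.09, 5.06 and 4.802 FPKM in TMAO, against 4.10, 4.77 and 5.70 FPKM in vehicle (log2 difference 0.040). Its partner Tfb2m, which opens the promoter, had a log2 difference of 0.082, and Tfam, which bends the promoter and packs the DNA, had -0.13. The groups overlapped for all 3. Tefm, the elongation factor, was at 1.66, 1.82 and 1.70 FPKM in TMAO, against 2.94, 2.13 and 2.27 FPKM in vehicle (log2 difference -0.33, unadjusted p = 0.0444, adjusted p = 0.404), with -0.23 without vehicle replicate 1 (unadjusted p = 0.0629). Mterf4, which takes part in ribosome assembly, had 0.18 (unadjusted p = 0.239). Lrpprc and Slirp, which together stabilise mitochondrial mRNAs, had 0.097 and -0.053, and their groups overlapped.

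Of RNA processing, Tbrg4, an RNA-binding protein of the FASTK family, was at 5.95, 7.04 and 6.36 FPKM in TMAO, against 8.30, 7.95 and 7.80 FPKM in vehicle (log2 difference -0.28, unadjusted p = 0.0310), and the exonuclease Pde12, which trims poly(A) tails, had -0.43 (unadjusted p = 0.0652). Among tRNA modification enzymes, Yrdc, which makes the precursor of the t6A base next to the anticodon, was at 7.33, 8.76 and 7.87 FPKM in TMAO, against 12.5, 10.8 and 10.8 FPKM in vehicle (log2 difference -0.46, unadjusted p = 0.00603, adjusted p = 0.404). Osgepl1, which places that base on mitochondrial tRNAs, was at 3.91, 3.29 and 3.30 FPKM in TMAO, against 1.87, 2.40 and 2.80 FPKM in vehicle (log2 difference 0.43, unadjusted p = 0.0245). Both genes had groups that did not overlap, in opposite directions, as had 17.5% (lower) and 12.1% (higher) of all genes tested. In the same list this was also so for Nsun4, Pus1 and Mrm3 (lower) and for Gtpbp3, Cdk5rap1, Mettl8 and Mettl17 (higher). Gars and Kars, which charge glycine and lysine tRNAs in the cytosol and in mitochondria, had log2 differences of -0.36 and -0.34 (unadjusted p = 0.02004 and 0.0431). Without vehicle replicate 1 the log2 difference was -0.25 for Tbrg4, -0.40 for Yrdc, 0.32 for Osgepl1, -0.31 for Gars and -0.22 for Kars, each at an unadjusted p under 0.05.

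Of the other lists, the polymerase Polg and the helicase Twnk, which replicate mitochondrial DNA, had 0.27 and -0.20 (unadjusted p = 0.0553 and 0.110). The ribosome recycling factor Gfm2 had 0.28 (unadjusted p = 0.0472), and 0.26 without vehicle replicate 1 (unadjusted p = 0.0502), and Guf1, a GTPase of mitochondrial translation, had 0.49 (unadjusted p = 0.0744). Ppargc1a, a coactivator that drives mitochondrial biogenesis, was at 9.17, 7.99 and 8.34 FPKM in TMAO, against 4.66, 6.79 and 6.47 FPKM in vehicle (log2 difference 0.46, unadjusted p = 0.0212), and the nuclear receptor Esrrg had 0.61 (unadjusted p = 0.0348). Both were also higher in TMAO without vehicle replicate 1, at 0.31 for Ppargc1a and 0.38 for Esrrg. The list of biogenesis regulators as a whole did not share that direction. Of its 9 tested genes, 6 had lower and 3 had higher values in TMAO. Its median log2 difference was -0.13, and -0.029 without vehicle replicate 1.

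The nuclear subunits of the respiratory complexes had no gene at an unadjusted p under 0.05 among 76 tested. Their median log2 difference was -0.014 for complex I, 0.0022 for complex II, which has no mitochondrially encoded subunit, -0.048 for complex III, -0.030 for complex IV and -0.043 for complex V. Without vehicle replicate 1 the medians were -0.021, -0.057, -0.025, -0.047 and -0.063 in that order, and again no gene had an unadjusted p under 0.05. The smallest p in each list belonged to Ndufa8 and Ndufb6 (-0.24 and -0.22), Sdhc and Sdha (-0.25 and 0.051), Uqcrb and Uqcrfs1 (-0.16 and -0.11), Cox6a1 and Cox5a (-0.21 and -0.14) and Atp5g3 and Atp5d (-0.21 and -0.16). The mitochondrially encoded subunits had positive medians in each complex with all libraries, and for complex III this was 1 gene. The nuclear ones of the same complexes had medians from -0.048 to -0.014, around the -0.027 of all genes. That median of all genes was 0.042 under median scaling and 0.026 under quantile normalization. The difference between mitochondrial and nuclear subunits was not tested.

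**Figure D5:**
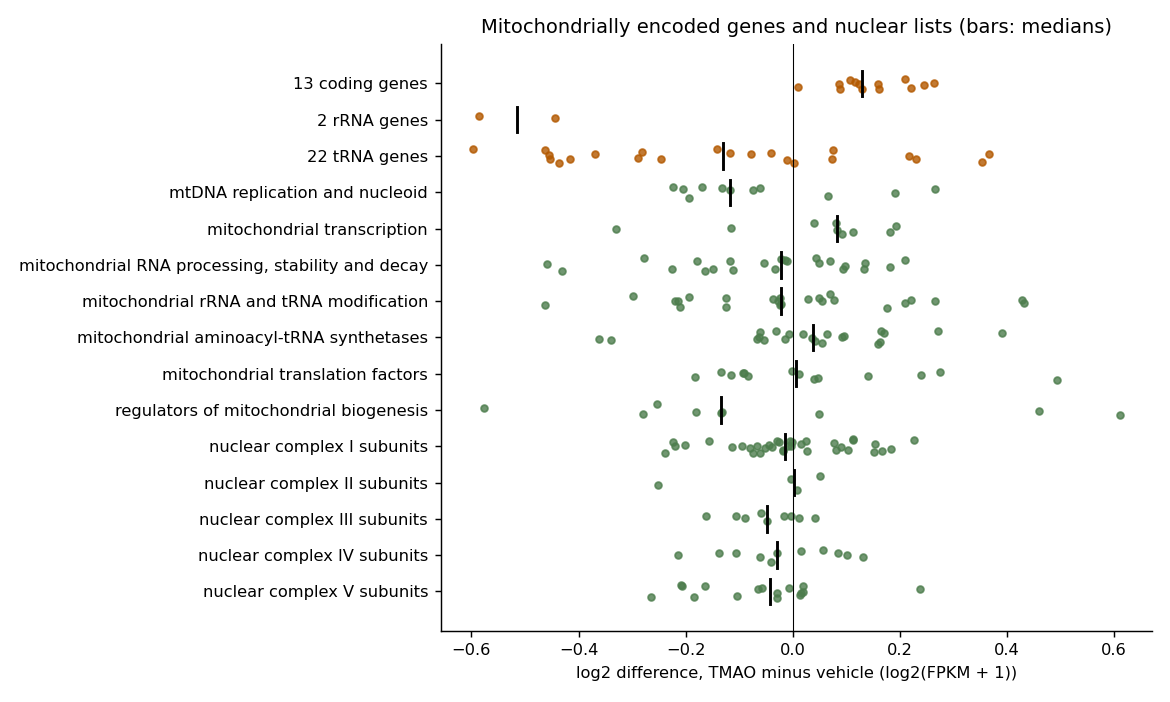
Log2 difference of TMAO minus vehicle for each mitochondrially encoded gene (orange) and each tested gene of 12 nuclear lists (green), with the median of each row as a bar. The coding genes have a median of 0.13, the rRNA genes of -0.51 and the tRNA genes of -0.13, while the nuclear subunit lists have medians between -0.048 and 0.0022.

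Weighting the libraries by how far each departed from its group was the only alternative that called mitochondrially encoded genes, 11 of 37, together with 4208 of all 14206 genes. It put most of the vehicle weight on replicate 2, and a second form of the weights did not converge and called 0.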

How the data were processed

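RNA sequencing values of 6 libraries were used. Per the labels' protocols, RNA was extracted with Trizol and sequenced on an Illumina NovaSeq instrument, and cutadapt 1.9 and build mm9 are named in the submitters' processing notes. The sources used here do not give the aligner, quantifier, strand setting or annotation. The authors deposited FPKM per gene, per the file headers, with their fold (ratio of mean FPKM), its log2, and a p-value and q-value per gene, in 2 tables that hold the same values. Libraries were matched to groups by the library names in the labels, with 0 unmatched FPKM columns.

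From these, log2(FPKM + 1) of 14206 genes that reached 1 FPKM in 3 or more libraries was tested with limma 3.58.1 in R 4.3.3 (trend and robust estimation, two-sided, Benjamini-Hochberg, threshold 0.05), and single genes with exact permutation tests. The fit was tested on simulated data, in which it called 34.4% of 2-fold, 80.8% of 4-fold and 93.9% of 8-fold changes. It also called 10 unchanged genes, and no change under 2-fold was simulated. A fold change on this scale understates that of low genes. No count test was run, since no counts were at hand.

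Gene IDs matched GENCODE M21 (GRCm38) for 99.6%, and coordinates are from there. Nuclear copies were sought with BLASTN 2.17.0 (at least 90% identity over at least 80% of length) among 118487 transcripts, against a mitochondrial sequence joined from the 37 genes' transcripts, as no genome was used here. The 13 coding and 2 rRNA genes, the 4 tRNA genes of highest mean, the 4 copies of highest mean, the 2 genes of smallest p per list and 5 fixed names were to be named; the other tRNA genes and copies given in full were chosen after their values were seen. The members and lists were chosen with earlier results of these data known. Alternatives changed the normalization, pseudocount, filter, variance estimate, library weights, replicate block and libraries used. Figures were drawn with matplotlib 3.10.9.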

Additional observations from a re-analysis of the deposited data

How the results depend on the processing

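Across 17 alternative settings, 554 of 605 values of single mitochondrially encoded genes kept their sign and 51 changed it, in 24 genes. None of the 37 genes was called over all genes except with array weights (11). The count at an unadjusted p under 0.05 (4 with all libraries) was 2 under median scaling, 1 under quantile normalization, 1 with the replicate block, 12 with array weights, 2 with array weights by REML, which did not converge, and 1 to 8 leaving out each library. For the nuclear lists (9) it was 2 with the replicate block, 49 with array weights and 1 to 15 leaving out each library. The labels do not state that the replicate numbers pair the libraries. Same-numbered deviations from the group means correlated at -0.216, -0.064 and -0.015, and no library correlated best with its own number. With 3 libraries a group, these values cannot settle whether the libraries are paired. Array weights were 0.073, 7.48 and 0.488 for vehicle replicates 1, 2 and 3.

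Signs that changed were, by array weights, mt-Tf 0.23, mt-Rnr1 0.016, mt-Ti 0.15, mt-Td 0.010 and mt-Tg 0.24. By median scaling they were mt-Tg 0.044, mt-Te 0.075 and mt-Tt 0.0065. By quantile normalization they were mt-Nd2 -0.041, mt-Tg 0.027, mt-Nd4l -0.0049, mt-Te 0.12 and mt-Tt 0.0088. Rescaled without mitochondrial genes, they were mt-Tg 0.016 and mt-Te 0.046. By REML weights, chosen after seeing the data, the coding median was -0.071, with mt-Nd1 -0.092, mt-Nd2 -0.071, mt-Co1 -0.034, mt-Co2 -0.11, mt-Atp6 -0.083, mt-Co3 -0.12, mt-Nd3 -0.073, mt-Nd4 -0.052, mt-Nd6 -0.074, mt-Cytb -0.056, mt-Ti 0.093, mt-Ts1 -0.13, mt-Tr 0.011, mt-Tl2 -0.021 and mt-Tp -0.017. Leaving out each library, the ranges were -0.33 to 0.15 for mt-Tf, -0.071 to 0.29 for mt-Nd1, -0.30 to 0.13 for mt-Ti, -0.088 to 0.31 for mt-Tq, -0.17 to 0.23 for mt-Tm, -0.032 to 0.058 for mt-Nd2, -0.44 to 0.0088 for mt-Td, -0.023 to 0.26 for mt-Co2, -0.18 to 0.098 for mt-Tg, -0.11 to 0.24 for mt-Tl2, -0.051 to 0.51 for mt-Nd6 and -0.24 to 0.11 for mt-Te. The cause was not tested. Depth is unknown, so precision rests on the spread between 3 libraries a group.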
